A study of Mus musculus with 16 samples.

Results

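Transcripts of 9 secreted growth factors with trophic or angiogenic activity were followed: Igf1, Vegfa, Vegfb, Pdgfa, Pdgfb, Hbegf, Osm, Hgf and Areg. They were taken by name from a table of 50600 genes, all 9 were found, and all 9 were among the 16345 genes abundant enough to be tested. The study sequenced RNA of fluorescence-sorted cells from male mice aged 13 to 14 weeks, without antibody staining, as 16 libraries in 4 groups of 4. Control microglia (CX3CR1-positive cells of control brain) and ischemic microglia (the same gate in the ischemic ipsilateral hemisphere) came from CX3CR1CreERT2:Rosa26-tdT mice, in which an inducible Cre under the promoter of the fractalkine receptor switches on a red fluorescent reporter. Brain CD11c cells (CD11c-eYFP-positive, ischemic hemisphere) and spleen CD11c cells came from Tg(Itgax-Venus)1Mnz mice, in which the promoter of the CD11c gene Itgax drives a yellow fluorescent protein. The first reporter stays on in cells that used the promoter when Cre was induced, the second marks cells that use the Itgax promoter, neither is limited to a single cell type, and the mouse line changed together with the sorted population. The type and duration of ischemia, the disease state of the spleen donors and the number of animals behind a library are not stated in the labels, so p-values measure only the spread between libraries.

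These factors act mostly as short-range signals. IGF1 signals through a receptor tyrosine kinase that promotes survival and growth, VEGF-A drives vessel growth and leakiness through VEGFR2 and is induced by low oxygen, and VEGF-B binds VEGFR1. PDGF-A and PDGF-B recruit oligodendrocyte precursors and pericytes, HB-EGF and amphiregulin activate the EGF receptor, oncostatin M signals through gp130 with its own receptor chain, and HGF signals through MET. In the brain, microglia are a known source of IGF1 and oncostatin M, and astrocytes and endothelium of VEGF-A and PDGF-B, respectively.

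Levels are given as counts per 1000000 counts (CPM) scaled for library composition, and every difference is a log2 fold change from the edgeR quasi-likelihood test, with its standard error and a p-value adjusted over all genes by the Benjamini-Hochberg method; a gene was called where the adjusted p was under 0.05. Total counts per library ran from 31569304 to 48245164. The genes behind the sort followed the labels in part: mean Itgax was 756 CPM in brain CD11c cells and 573 in spleen CD11c cells against 30.4 in control microglia, while mean Cx3cr1 was 3128 CPM in control microglia and still 1312 in brain CD11c cells. Microglia markers (10 genes) summed to 12610 to 14110 CPM in brain CD11c libraries and to 1167 to 1669 in spleen libraries. Spleen libraries also held B cell RNA, with 8 B cell markers summing to 21010 to 79330 CPM against 129 to 253 in brain CD11c cells. Brain CD11c replicates 1 and 2 stood apart from replicates 3 and 4, with 8 monocyte markers summing to 6280 and 5159 CPM against 2412 and 1564, and 12 dendritic cell markers to 14850 and 21020 against 31080 and 38680. Fn1 was the largest part of the monocyte sum in replicates 1 and 2 (4500 and 3750 CPM). It was also at 1130 to 2510 CPM in ischemic microglia. Ischemic microglia replicate 2 had less Itgax (35.2 CPM) than the other ischemic microglia libraries (90.2 to 92.0 CPM). What these cell mixtures contribute to each level was not tested, and in bulk RNA fewer expressing cells and less RNA per cell cannot be told apart.

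The tests between neighbouring levels that follow also use 3 further contrasts, in which 58.9% (brain CD11c against control microglia), 68.8% (spleen CD11c against control microglia) and 68.5% (spleen CD11c against ischemic microglia) of genes were called.

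Microglia were rich in Pdgfb and Osm, brain CD11c cells added a high level of Vegfa with more Hgf and Areg, and spleen CD11c cells had the lowest mean of 7 factors, with Igf1 and Hgf the exceptions. Per kilobase of exon, the scale on which different genes can be compared, the highest means in control microglia were those of Pdgfb (119.9), Osm (77.7) and Vegfb (24.7). The same 3 led in ischemic microglia, with Osm at 133.6, Pdgfb at 104 and Vegfb at 26.1. In brain CD11c cells Osm (76.1), Vegfa (46.0) and Pdgfb (43.5) led, and in spleen CD11c cells Igf1 (10.8), Vegfb (7.33) and Pdgfb (6.03). The lowest means were those of Hgf in control microglia (0.305), Areg in ischemic microglia (0.579) and in spleen CD11c cells (0.0275), and Hbegf in brain CD11c cells (0.872).

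**Figure D1:**
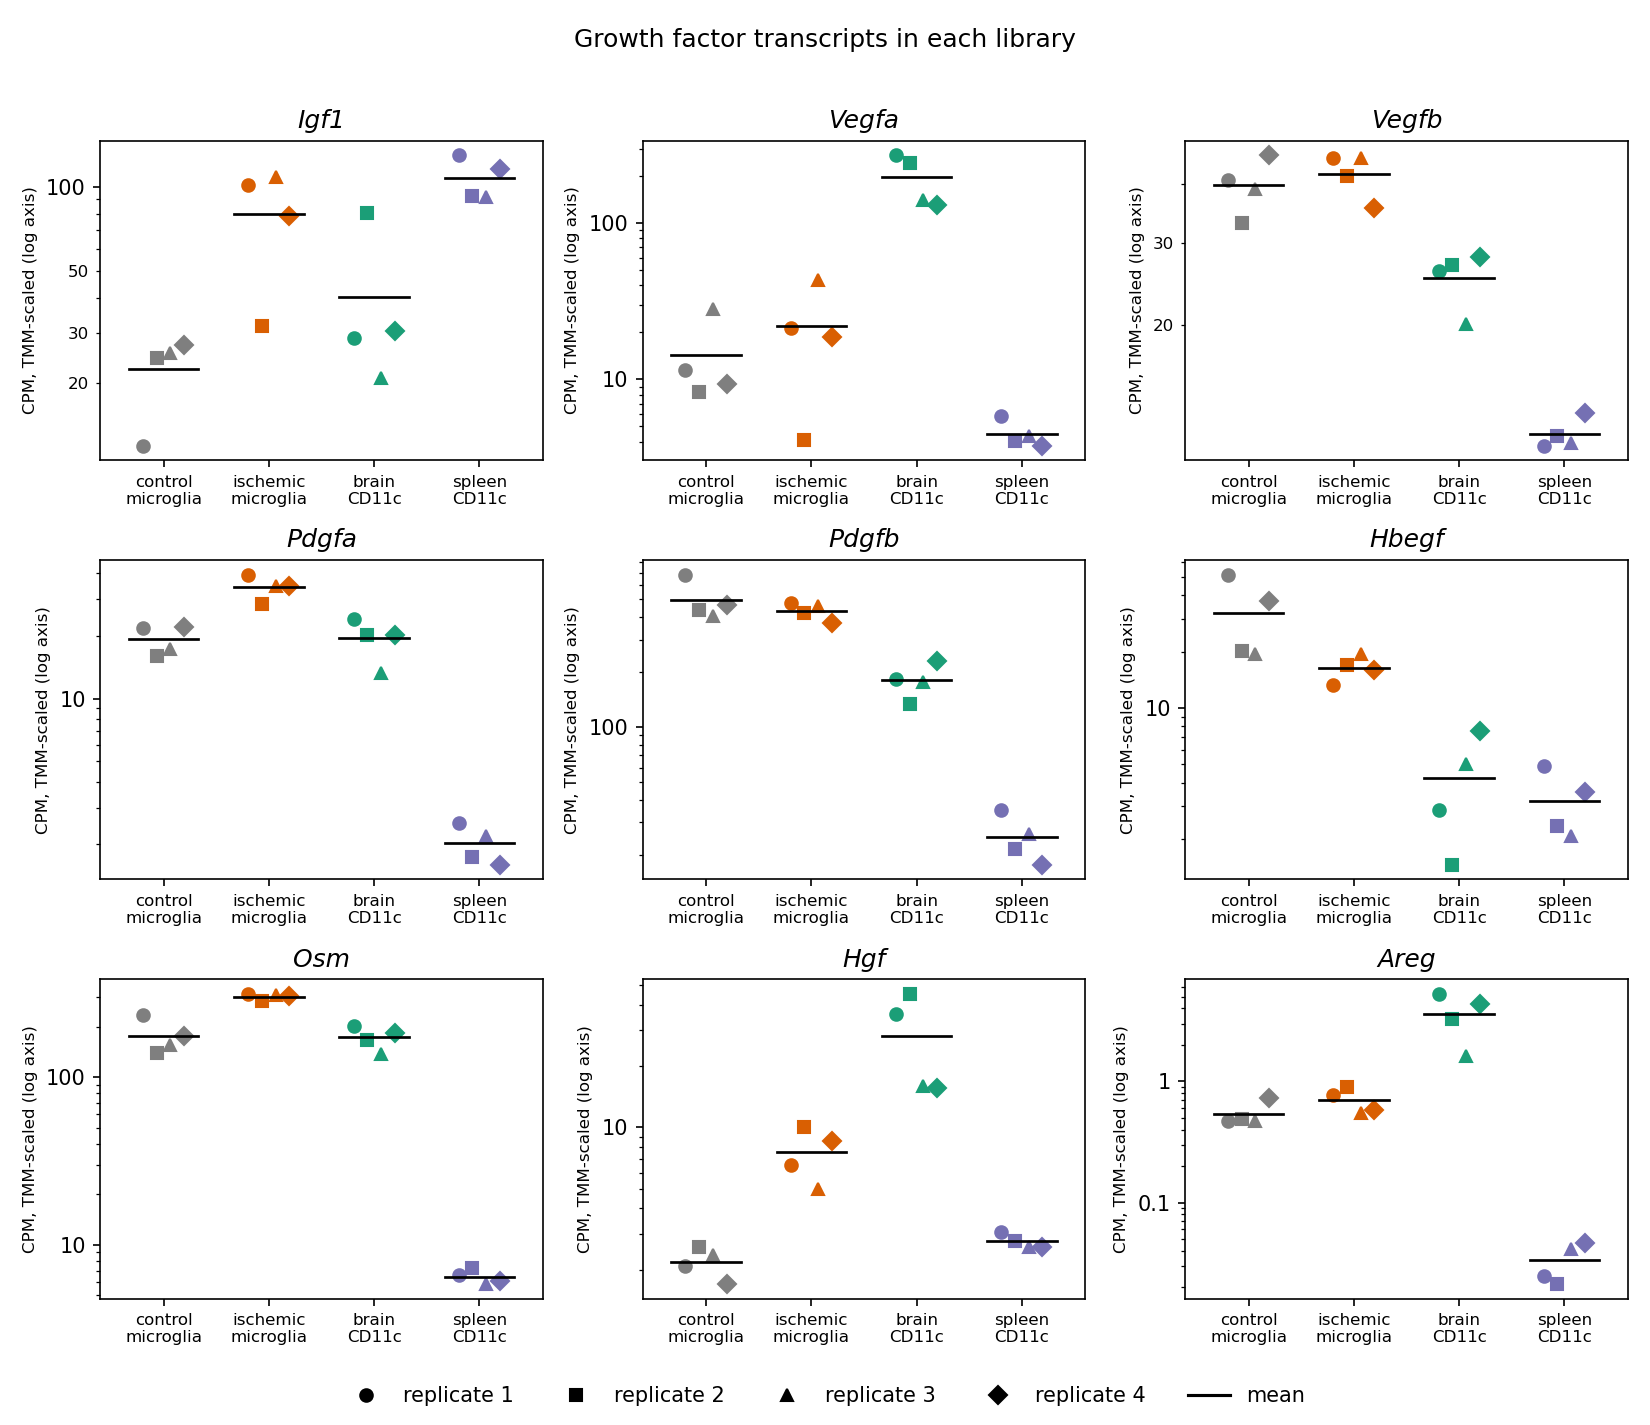
Each panel plots CPM (log axis, range set per gene) of a growth factor transcript in the 16 libraries, with the marker shape for the replicate and a black line for the group mean. Vegfa in brain CD11c cells ran from 131 to 272 CPM, above all other libraries, and Osm in spleen CD11c cells from 5.82 to 7.27 CPM, below all others.

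**Figure D2:**
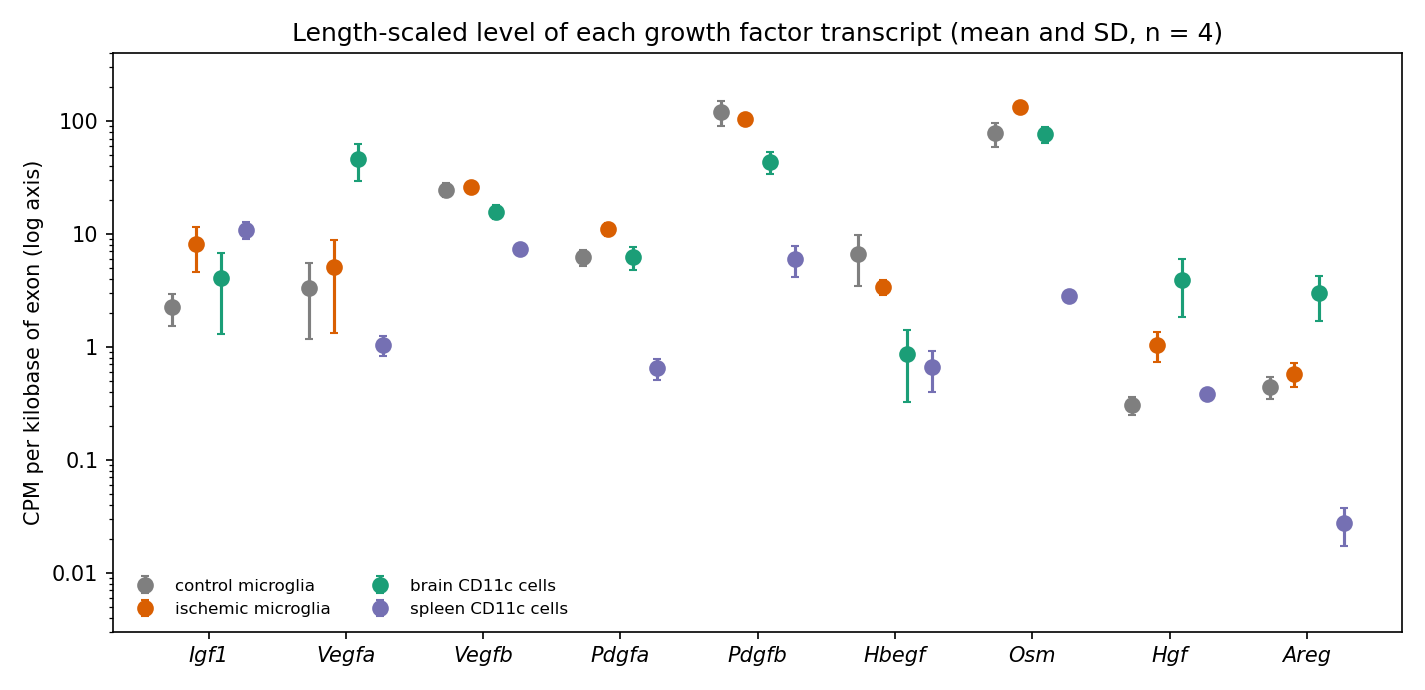
Mean level per kilobase of exon (CPM per kilobase, log axis) of the growth factor transcripts in the 4 groups, with SD (n = 4) as bars. Pdgfb and Osm led in both microglia groups, and Areg in spleen CD11c cells was lowest at 0.0275.

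Igf1 (ENSMUSG00000020053; GRCm38 chromosome 10, 87858265 to 87937042, plus strand) encodes insulin-like growth factor 1. Its level was 11.9, 24.5, 25.6 and 27.2 CPM in control microglia replicates 1 to 4 and 101, 32.0, 108 and 78.7 CPM in ischemic microglia. All ischemic libraries lay above all control libraries, with replicate 2 close to the controls. The rise was 1.84 ± 0.42 log2 units (SE; adjusted p = 0.00345). In brain CD11c cells the level was 28.9, 80.8, 20.8 and 30.7 CPM, so 3 libraries resembled control microglia in level and replicate 2 stood among the ischemic microglia. Spleen CD11c cells, at 129, 92.5, 91.8 and 115 CPM, all exceeded the brain CD11c libraries. Brain was lower than spleen by −1.41 ± 0.42 (adjusted p = 0.00782), and by −2.03 without brain replicate 2. With brain replicates 1 and 2 alone the difference was −0.96 and was not called (adjusted p = 0.117), while the call was kept when any single library was left out. Against ischemic microglia the brain CD11c level differed by −0.99 ± 0.41 and was not called (adjusted p = 0.0712), but it was called without brain replicate 2 (−1.56, adjusted p = 0.00371), without ischemic microglia replicate 2 (−1.24, adjusted p = 0.0185), with brain replicates 3 and 4 alone (−1.62), by DESeq2 (−1.02) and by limma-voom (−1.05). In the order spleen CD11c, ischemic microglia, brain CD11c and control microglia, no 2 neighbours were called different, while the ends were (2.27 log2 units; adjusted p = 0.000227).

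Vegfa (ENSMUSG00000023951; chromosome 17, 46016993 to 46032369, minus strand) encodes the main angiogenic VEGF. It was at 272, 243.7, 142 and 131 CPM in brain CD11c cells against 21.5, 4.07, 43.3 and 18.6 CPM in ischemic microglia. No ischemic microglia library came near the lowest brain CD11c library, although microglia libraries differed up to 10.7-fold among themselves. The difference was 3.17 ± 0.56 log2 units, or 9.01-fold (adjusted p = 0.000351). With brain replicates 1 and 2 alone it was 3.56, and with 3 and 4 alone 2.65, both called. In spleen CD11c cells Vegfa was at 5.80, 4.04, 4.37 and 3.77 CPM, and brain exceeded spleen by 5.45 ± 0.63 (adjusted p = 2.26e-06).

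Control microglia held Vegfa at 11.4, 8.30, 28.1 and 9.36 CPM, with replicate 3 above the other control libraries. Ischemic microglia spread to both sides of that range, and the difference of 0.61 ± 0.52 log2 units was not called (adjusted p = 0.392). It ran from 0.03, without ischemic replicate 3, to 1.15, without control replicate 3, and was not called in either case, so neither a rise nor its absence was shown. The order of levels was brain CD11c, ischemic microglia, control microglia and spleen CD11c. Its middle neighbours were not called different, and control microglia exceeded spleen by 1.68 (adjusted p = 0.0133).

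Vegfb (ENSMUSG00000024962; chromosome 19, 6982473 to 6987651, minus strand), whose product acts on VEGFR1 without the strong vessel-forming effect of VEGF-A, had a different and narrower pattern. Levels were 40.8, 33.0, 39.0 and 46.0 CPM in control microglia and 45.3, 41.6, 45.4 and 35.5 CPM in ischemic microglia, which overlapped (0.08 ± 0.12; adjusted p = 0.652; the sign was negative with library totals as the scale, −0.07, and without control replicate 2, −0.01). Brain CD11c cells, at 26.1, 26.9, 20.1 and 27.9 CPM, lay below every microglia library (−0.73 ± 0.12 against ischemic microglia; adjusted p = 0.000185). Spleen CD11c cells were lower again at 11.1, 11.6, 11.3 and 13.0 CPM (brain higher by 1.10 ± 0.13; adjusted p = 1.15e-06). Thus the brain CD11c cells had the highest Vegfa of the 4 groups and less Vegfb than either microglia group.

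These paralogs took opposite directions between brain CD11c cells and microglia, though both were higher in brain than in spleen CD11c cells. The RefSeq sequence upstream of each start site is therefore shown (GRCm38.p6, 250 bases, 5′ to 3′ on the gene's strand, windows outside annotated exons). Capitals mark the hypoxia response core ACGTG or GCGTG on either strand. The Vegfa window is chr17:46032378-46032627 and the Vegfb window chr19:6987652-6987901, both on the minus strand.
Vegfa: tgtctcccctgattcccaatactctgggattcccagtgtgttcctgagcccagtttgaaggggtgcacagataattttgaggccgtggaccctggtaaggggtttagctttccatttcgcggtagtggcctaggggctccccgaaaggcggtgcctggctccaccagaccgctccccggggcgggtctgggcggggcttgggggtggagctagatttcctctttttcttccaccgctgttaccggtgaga
Vegfb: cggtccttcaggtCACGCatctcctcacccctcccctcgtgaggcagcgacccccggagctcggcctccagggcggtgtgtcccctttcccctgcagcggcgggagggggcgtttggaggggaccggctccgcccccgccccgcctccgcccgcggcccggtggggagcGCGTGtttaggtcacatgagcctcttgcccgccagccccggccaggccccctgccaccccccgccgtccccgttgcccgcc
The Vegfb window held 2 matches, at bases −237 to −233 and −81 to −77 before the start, and this Vegfa window held none. A second annotated Vegfa start, whose window overlaps an exon and is not printed, held 2 matches, at −218 to −214 and −211 to −207. The core stood in 38.6% of 32851 promoter windows of the same length, so a match is common, and no match says only that these letters are not in this window. The AP-1 sites TGACTCA or TGAGTCA, the STAT site TTCNNNGAA and the EGR site GCGTGGGCG, found in 4.46%, 7.02% and 0.536% of windows on either strand, were in none of the 4 windows printed here. Of the 9 genes, 6 had a promoter entry, and only the 4 windows free of annotated exons are printed.

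Pdgfb (ENSMUSG00000000489; chromosome 15, 79995874 to 80014977, minus strand), the pericyte-recruiting PDGF chain, had its highest levels in both microglia groups. It stood at 685, 437.5, 406 and 468 CPM in control microglia and at 479, 419, 462 and 372.5 CPM in ischemic microglia. The 2 groups overlapped and did not differ by the test (−0.20 ± 0.21; adjusted p = 0.475). Brain CD11c cells had 184, 134, 176 and 229.7 CPM, below every microglia library (−1.26 ± 0.21 against ischemic microglia; adjusted p = 0.000179). Spleen CD11c cells had 35.2, 21.4, 26.1 and 17.6 CPM, below every brain library (brain higher by 2.85 ± 0.22; adjusted p = 1.52e-08).

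Pdgfa (ENSMUSG00000025856; chromosome 5, 138976014 to 138997370, minus strand), whose product maintains oligodendrocyte precursors, was far lower per length than Pdgfb in both microglia groups, at a mean of 6.20 against 119.9 CPM per kilobase in control microglia. It stood at 21.8, 16.1, 17.4 and 22.1 CPM in control microglia and at 39.4, 28.4, 34.8 and 34.9 CPM in ischemic microglia, without overlap. The rise was 0.83 ± 0.18 log2 units (adjusted p = 0.00205). In brain CD11c cells the level of 24.2, 20.2, 13.3 and 20.3 CPM lay below ischemic microglia (−0.82 ± 0.18; adjusted p = 0.00184) and overlapped control microglia (0.01; adjusted p = 0.97). Spleen CD11c cells had 1.60 to 2.54 CPM (brain higher by 3.27 ± 0.20; adjusted p = 7.99e-10). Pdgfa overlaps 6330403L08Rik on the other strand, which averaged 12.4 CPM (control microglia), 12.9 (ischemic microglia), 8.11 (brain CD11c) and 2.19 (spleen CD11c). The strand setting of the counting is not stated in the labels, so reads of this pair may not be fully parted.

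Hbegf (ENSMUSG00000024486; chromosome 18, 36504927 to 36515805, minus strand) encodes heparin-binding EGF-like growth factor, a membrane-anchored ligand released by shedding. It was at 51.5, 20.1, 19.4 and 37.2 CPM in control microglia and at 13.3, 17.0, 19.4 and 16.0 CPM in ischemic microglia. Every control library lay above every ischemic one, by a narrow margin for control replicate 3, and the difference of −0.97 ± 0.41 was not called (adjusted p = 0.0822). It was called by DESeq2 (−0.96, adjusted p = 0.04996), by limma-voom (−0.84, adjusted p = 0.0428), with library totals (−1.11, adjusted p = 0.0486) and with the 8 libraries alone (−0.93, adjusted p = 0.0367). Brain CD11c cells had 2.86, 1.46, 5.01 and 7.53 CPM, all below the microglia libraries (−1.96 ± 0.44 against ischemic microglia; adjusted p = 0.00212). The difference was −2.93 with brain replicates 1 and 2 and −1.38 with 3 and 4. Spleen CD11c cells, at 4.88, 2.34, 2.06 and 3.54 CPM, overlapped the brain CD11c cells (0.40 ± 0.43; adjusted p = 0.441), with the sign reversed without brain replicate 4 (−0.04) and with brain replicates 1 and 2 alone (−0.57).

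Areg (ENSMUSG00000029378; chromosome 5, 91139599 to 91148432, plus strand) encodes amphiregulin, a low-affinity EGF receptor ligand known from tissue repair by immune cells. It went the other way from Hbegf. Brain CD11c cells had 5.29, 3.25, 1.63 and 4.33 CPM, from 59 to 174 reads a library, against 0.777, 0.903, 0.549 and 0.582 CPM in ischemic microglia. All brain CD11c libraries lay above all microglia libraries (2.36 ± 0.35; adjusted p = 5.56e-05). Control microglia had 0.475, 0.487, 0.473 and 0.722 CPM, overlapping ischemic microglia (0.39 ± 0.36; adjusted p = 0.423). Spleen CD11c cells had 1, 1, 2 and 2 reads. Over the 4 libraries the 486 reads of brain CD11c cells and 6 of spleen gave a ratio of 106 after scaling, with an exact 95% interval of 48.5 to 291 that covers counting error only (edgeR adjusted p = 4.85e-09). Basophils and mast cells are also known to make amphiregulin: 12 of their markers summed to 14.7 to 28.2 CPM in brain CD11c cells, 11.8 to 14.9 in ischemic microglia, 20.9 to 40.6 in control microglia and 9.67 to 23.1 in spleen. Il1rl1 alone was at 17.7 to 22.8 CPM in control microglia, 9.86 to 12.1 in ischemic microglia and 4.89 to 10.9 in brain CD11c cells. Of 9 markers tested, 2 were called higher in brain CD11c cells than in ischemic microglia and none lower. T and innate lymphoid markers (12 genes) summed to 75.8 to 130.7 CPM in brain CD11c cells and 35.2 to 58.3 in ischemic microglia. The sums were 65.2 to 67.9 CPM in control microglia and 203 to 507 in spleen. Il7r alone was at 45.5 to 109 CPM in brain CD11c cells and 14.2 to 23.3 in ischemic microglia. Of these 12, 7 were called higher in brain CD11c cells than in ischemic microglia and 1 lower. The part of any of these cells in the Areg level was not tested.

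Tgfa, which encodes another EGF receptor ligand, was read beside them. Its means were 159.9 CPM (control microglia), 156 (ischemic microglia), 42.0 (brain CD11c) and 0.314 (spleen CD11c), so it fell with Hbegf between ischemic microglia and brain CD11c cells (−1.89; called). The receptor gene Egfr was at 2.16, 2.12, 0.278 and 0.186 CPM in the same order. The upstream window of Areg is chr5:91139349-91139598 on the plus strand, with capitals for a cAMP response site TGACGTCA.
Areg: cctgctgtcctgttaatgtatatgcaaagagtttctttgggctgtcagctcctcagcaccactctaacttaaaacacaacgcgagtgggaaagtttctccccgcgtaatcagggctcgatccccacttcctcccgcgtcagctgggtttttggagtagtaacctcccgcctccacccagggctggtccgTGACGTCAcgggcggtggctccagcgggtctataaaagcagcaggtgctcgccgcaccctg
The site lay at bases −61 to −54 before the start, and 1.55% of the 32851 windows held it on either strand. The hypoxia response core was not among its letters.

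Osm (ENSMUSG00000058755; chromosome 11, 4236420 to 4241026, plus strand) encodes oncostatin M, a cytokine of the interleukin 6 family made by myeloid cells. It was at 235, 139.7, 155 and 176 CPM in control microglia and at 315.5, 284, 309 and 306 CPM in ischemic microglia, all above the controls. The rise of 0.78 ± 0.15 log2 units was called (adjusted p = 0.000626), and the ischemic libraries differed by no more than 1.11-fold. Brain CD11c cells, at 203, 168, 138 and 183 CPM, lay below ischemic microglia (−0.81 ± 0.15; adjusted p = 0.000315) and overlapped control microglia (−0.03; adjusted p = 0.889). Spleen CD11c cells had 6.62, 7.27, 5.82 and 6.09 CPM, and brain exceeded them by 4.74 ± 0.17 (adjusted p = 1.1e-12). Osmr, the receptor chain specific to oncostatin M, was near the floor, with means of 0.0415 CPM (control microglia), 0.207 (ischemic microglia), 0.885 (brain CD11c) and 0.0296 (spleen CD11c), while the shared gp130 gene Il6st was at 468, 311.5, 181 and 205 CPM.

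Hgf (ENSMUSG00000028864; chromosome 5, 16553495 to 16620152, plus strand) encodes hepatocyte growth factor, which supports epithelial, endothelial and neural survival. It was at 2.10, 2.59, 2.37 and 1.70 CPM in control microglia and at 6.54, 10.04, 4.97 and 8.60 CPM in ischemic microglia, without overlap (1.78 ± 0.32; adjusted p = 0.000486). Brain CD11c cells had 35.8, 45.2, 15.9 and 15.6 CPM, above every ischemic microglia library (1.90 ± 0.31; adjusted p = 0.000137). Both of replicates 1 and 2 stood well above replicates 3 and 4, and the difference was 2.42 with the former alone and 1.08 with the latter, both called. Spleen CD11c cells had 3.06, 2.78, 2.58 and 2.59 CPM (brain higher by 3.35 ± 0.33; adjusted p = 2.23e-07; 2.48 with brain replicates 3 and 4), which overlapped control microglia. Replicates 1 and 2 also had the larger sum of monocyte markers, with Fn1 its largest part there (4500 and 3750 CPM against 1290 and 449). The markers did not all follow that division. Ccr2 was at 656 and 686 against 611 and 535 CPM, and Plac8 at 165 and 132 against 319 and 449. The part of that mixture in the Hgf level was not tested. The order of the 4 means was brain CD11c, ischemic microglia, spleen CD11c and control microglia, and the step from ischemic microglia to spleen was called (1.45; adjusted p = 0.000622) while that from spleen to control microglia was not. Met, the HGF receptor gene, was also highest in brain CD11c cells and lowest in control microglia, with means of 0.406 CPM (control microglia), 2.53 (ischemic microglia), 10.4 (brain CD11c) and 6.09 (spleen CD11c). It was called higher in ischemic than control microglia (2.60) and in brain CD11c cells than in ischemic microglia (2.04).
The upstream window of Hgf, the factor with a stepwise rise over the 3 brain groups, is chr5:16553245-16553494 on the plus strand, with the hypoxia response core in capitals.
Hgf: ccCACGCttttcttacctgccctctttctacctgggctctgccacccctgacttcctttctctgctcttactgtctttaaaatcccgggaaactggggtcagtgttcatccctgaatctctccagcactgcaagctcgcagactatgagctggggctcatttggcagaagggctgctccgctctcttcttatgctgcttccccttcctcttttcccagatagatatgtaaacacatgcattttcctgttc
Its single match was at bases −248 to −244, at the far end of the window.

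**Figure D3:**
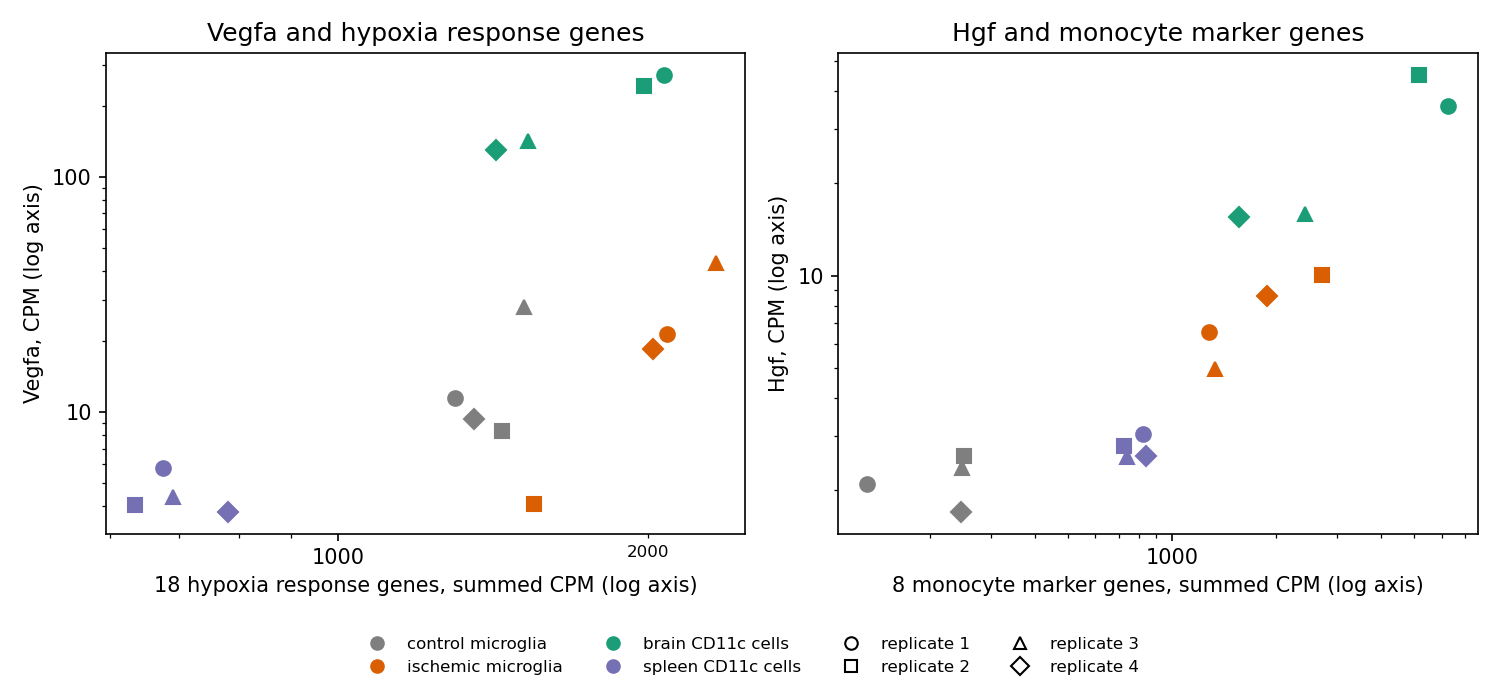
Left, Vegfa against the summed CPM of 18 hypoxia response genes, and right, Hgf against the summed CPM of 8 monocyte marker genes, in the 16 libraries (both axes log; colour for the group, shape for the replicate). Brain CD11c replicates 1 and 2 lay above replicates 3 and 4 on both axes of both panels. The hypoxia sum was 1424 to 2072 CPM in brain CD11c cells, 1548 to 2330 in ischemic microglia and 1298 to 1514 in control microglia. Of its 18 genes, 4 were called higher and 5 lower in brain CD11c cells than in ischemic microglia. The part of hypoxia in the Vegfa level was not tested.

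Counted over the comparison of ischemic with control microglia, which concerns the response of microglia to ischemia, 4 of 9 factors rose (Igf1, Hgf, Pdgfa and Osm) and none was called lower, with 5 not called. Of all genes tested, 17.7% were called higher and 18.0% lower, 35.7% in all. Of the 9, 5 had groups that did not overlap (Hbegf in addition to the 4 that rose), as did 43.3% of all genes. The median over the 9 was 0.61, against −0.05 over all genes. Among groups of related genes, 8 of 12 tested genes for processing and release of these factors rose and 1 fell. Rhbdf2, which guides the sheddase ADAM17, rose by 2.07, Plat (tissue plasminogen activator) by 1.21 and Mmp14 by 1.15, while Rhbdf1 was lower (−0.79). Plat was low in both groups, at 0.462 to 0.675 CPM in control and 0.81 to 2.06 CPM in ischemic microglia. Of 18 hypoxia response genes, which include regulators such as Hif1a and Vhl as well as targets, 9 rose and none fell, with Egln3, an oxygen-sensing prolyl hydroxylase, at 3.23, Pgk1 at 1.55 and Ero1l at 1.54. The hypoxia sum was 1548 CPM in ischemic replicate 2, which had the lowest Vegfa and Igf1 of its group, and 2023 to 2330 CPM in the other 3. That library also had less Itgax (35.2 CPM against 90.2 to 92.0). The part of hypoxia in its Vegfa and Igf1 levels was not tested.

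Receptors were called higher in 4 of 17 cases (Igf2r 3.84, Met 2.60, Kdr 1.02, Nrp2 0.98) and lower in 1 (Il6st −0.59). Binding proteins and inhibitors went both ways, 3 higher and 3 lower of 15, with Igfbp3 at 0.420 against 0.0353 CPM and Igfbp6 higher by 2.70 but Igfbp2 at −1.85. Other ligands of the same families were called in 3 of 12 cases, Lif (1.21) and Mst1 (0.1304 against 0.0127 CPM) higher and Igf2 lower (−2.21). Other angiogenic and trophic factors had 5 of 13 higher and 1 lower, among them Angptl4 (4.75), Angpt2 (0.387 against 0.0448 CPM) and Thbs1 (1.78), with Bmp2 lower (−1.81). Immediate early and heat shock genes, which respond to cell handling as well as to stimulation, fell in 8 of 17 cases and rose in none, with Hspa1b at −3.77, Hspa1a at −3.20 and Jun at −1.75. The part of this list in the Hbegf levels was not tested.

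**Figure D4:**
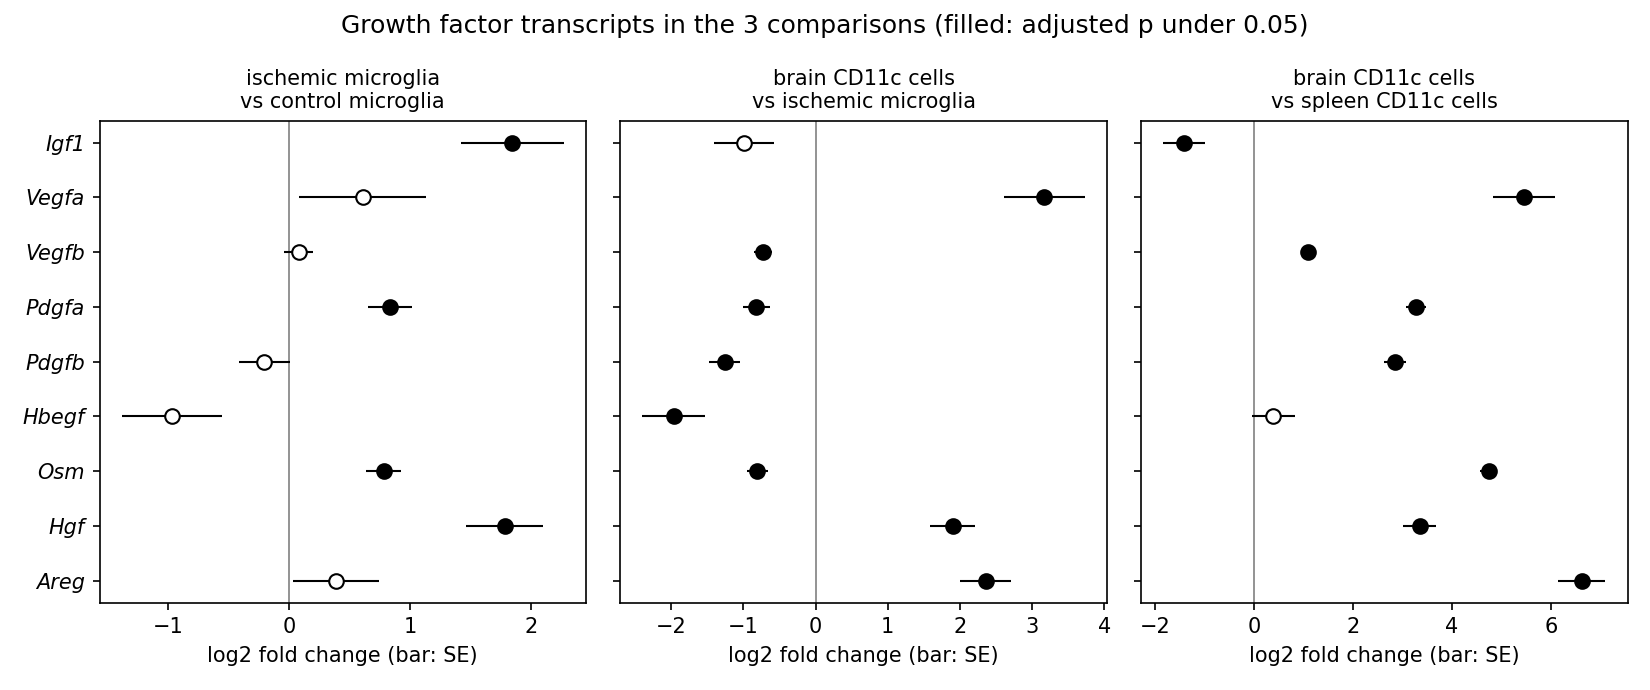
Log2 fold changes of the growth factor transcripts in the 3 comparisons, with the SE as a bar, filled where the adjusted p was under 0.05 and open otherwise (horizontal scales differ between panels). In the middle panel Vegfa, Areg and Hgf lie at 3.17, 2.36 and 1.90 and the other 6 below 0.

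Between brain CD11c cells and ischemic microglia, compared to find what sets each population apart, 3 factors were higher in CD11c cells (Vegfa, Areg and Hgf), 5 lower (Vegfb, Pdgfa, Pdgfb, Hbegf and Osm) and Igf1 was not called. That is 8 of 9 against 38.8% of all genes tested (19.7% higher and 19.1% lower), with a median of −0.81 against 0 over all genes. All 8 had 4 libraries of one group above all 4 of the other, as 31.4% of all genes did. This comparison shares the ischemic microglia with the one before and the brain CD11c libraries with the next, so their values are not independent. Of 18 hypoxia response genes 4 were higher and 5 lower (median −0.13). Ndrg1, a hypoxia and stress target, was higher by 4.54 and Ddit4 by 2.58, while the glycolytic regulators Pdk1 and Hk2 were lower (−1.22 and −1.21), as was Bnip3 (−0.87). Immediate early and heat shock genes were lower in 8 of 17 cases and higher in none (Egr1 −1.66, Egr2 −1.45, Jun −1.39). Receptors were higher in 5 of 17 cases and lower in 3. Erbb3 was at 3.35 against 0.605 CPM (2.46) and Flt4, the VEGFR3 gene, at 1.61 against 0.303 CPM (2.39), and Egfr was lower (−2.92). Kdr and Nrp1, a VEGF-A receptor and coreceptor, were at 23.7 and 151 CPM in brain CD11c cells against 18.7 and 149.8 in ischemic microglia and were not called.

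Binding proteins and inhibitors were higher in 6 of 15 cases and lower in 3 of 15. They included Spint2, an inhibitor of HGF-activating proteases (5.61, at 17.0 against 0.346 CPM), the protease gene Htra1 (3.22) and Igfbp6 (2.08), with Spry1 lower (−1.65). Processing and release genes had 4 higher and 5 lower of 12, with St14, an HGF activator, at −1.06 and Plau (urokinase) at −0.98. Hgfac was at 0.789 CPM against 0.0132, and Mmp14 was higher by 1.29. Other ligands had Pgf higher, at 0.959 against 0.155 CPM, and Tgfa, Il6 and Clcf1 lower (−1.89, −1.14 and −0.54). Nrg1 was at 0.707 CPM against 0.00627. Other angiogenic factors split, 5 higher and 6 lower of 13, with Anxa1 at 6.83 and Thbs1, an anti-angiogenic matrix protein, at 4.71 (2773 against 106 CPM) but Bmp2 at −2.02 and Ccn1 at −1.80. Thbs1 stood at 5230 and 4340 CPM in brain replicates 1 and 2 and at 840 and 691 in replicates 3 and 4, the same division as for Vegfa and Hgf.

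Between brain and spleen CD11c cells, which share the reporter but not the organ, 7 of 9 factors were higher in brain, Igf1 was lower and Hbegf was not called. Of all genes tested, 64.2% were called here, 31.2% higher and 33.0% lower, and the median over the 9 was 3.27 against −0.04. Groups did not overlap for 8 of 9 factors and for 55.2% of all genes. The largest differences were those of Areg (6.63), Vegfa (5.45) and Osm (4.74). In each list named here more genes were higher than lower: 14 of 18 hypoxia response genes were higher and 1 lower (Epas1, the gene of the regulator HIF-2 alpha, 3.005, Egln3 2.64, Slc2a1 2.37; Adm −1.998), and 16 of 17 immediate early and heat shock genes were higher and none lower (Hspa1a 8.16, Fosb 7.47). The immediate early sum was 6330 to 13000 CPM in brain CD11c cells and 1015 to 1048 CPM in spleen. Of 15 binding proteins and inhibitors 11 were higher and 3 lower, with Igfbp6 at 4.61 and Spry4 at −2.90. Receptors had 9 of 17 higher and 2 lower, with Nrp1 at 2.91, Lifr at 2.88 and Erbb2 at −4.99, and Pdgfra at 1.20 against 0.0249 CPM. Processing and release genes had 8 higher and 4 lower of 12 (Plat 5.63, Mmp14 5.59, Mmp9 −3.22). Other angiogenic factors had 11 higher and 1 lower of 13 (Thbs1 11.41, Angpt1 −2.17). Other ligands had 6 higher and 3 lower of 12 (Tgfa 7.05, Lif 4.31, Mst1 −2.53). Several of these values rest on a level near the floor. Brain CD11c cells had Erbb2 at 0 to 0.581 CPM, Spry4 at 0 to 0.913, Angpt1 at 0.084 to 0.633 and Mst1 at 0.056 to 0.609. Spleen CD11c cells had Hspa1a at 0.085 to 0.486 CPM, Plat at 0.116 to 0.247, Tgfa at 0.144 to 0.446 and Lif at 0.0995 to 0.722. All 10 microglia markers were also higher in brain, and all 10 neutrophil markers lower. Organ and microglia, neutrophil and B cell RNA changed together in this comparison and cannot be told apart. Whether the state of the donors also differed is not stated in the labels. Library totals as the scale moved the median of all genes from −0.04 to −0.30 here, from −0.05 to −0.20 between the microglia groups and from 0 to 0.10 between brain CD11c cells and ischemic microglia. The share of calls that were higher moved from 48.6% to 34.9%, from 49.5% to 33.5% and from 50.7% to 62.4%, in that order, while every factor that was called kept its direction.

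Genes with the most similar profile over the 16 libraries were listed by Pearson's r of log2 CPM, among 8296 protein-coding genes with at least 20 CPM in a group. The libraries share 4 groups, so r mostly reflects group means and is given as a description. For Osm they were Ccl12, Prune2 and Eya4 (0.996, 0.995 and 0.995), and for Pdgfb Tfe3, Tspan18 and Tmem44 (0.992 each). Pdgfa was most like Ccrl2, Plau and Clta (0.994, 0.994 and 0.992), and Vegfb most like Wbp2, Spns2 and Mzt2 (0.982, 0.98 and 0.98). For Hgf they were Mmp19, Soat1 and Nucb2 (0.982, 0.979 and 0.978), and for Areg Card19, Nfil3 and Thbs1 (0.982, 0.973 and 0.973). They were lower for Hbegf (Surf2 0.951, Slc1a2 0.949, Pde8b 0.949), Vegfa (Arrdc4 0.946, Gpr137b 0.940, Trip10 0.936) and Igf1 (Adcy3 0.904, Ift52 0.901, Ly9 0.891). No gene was among the 3 most alike of more than 1 factor, and each was chosen by r alone. By mean level, Mmp19, a matrix protease, had the same order of groups as Hgf at 2.41 CPM (control microglia), 14.6 (ischemic microglia), 107 (brain CD11c) and 4.52 (spleen CD11c).

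In brain CD11c cells 8 astrocyte markers summed to 52.2 to 82.9 CPM and 12 endothelial and mural markers to 59.4 to 91.1 CPM, against 172 to 201 and 37.2 to 58.1 CPM in ischemic microglia. Slc1a3 was the largest part of the astrocyte sum in ischemic microglia, at 122 to 137 CPM, and was at 137 to 164 CPM in control microglia. The astrocyte marker Aqp4 was at 0.186 to 1.57 CPM in ischemic microglia and 0.0911 to 0.308 in brain CD11c cells. The part of astrocytes, endothelial and mural cells in the Vegfa and Pdgfb levels was not tested. Neutrophils, another source of oncostatin M, had 10 markers summing to 1.74 to 8.64 CPM in brain CD11c cells, 0.314 to 0.903 CPM in ischemic microglia and 225 to 1013 CPM in spleen CD11c cells. In ischemic microglia the neutrophil genes Ly6g, Elane and Camp were at 0 in all 4 libraries. The part of neutrophil RNA in the Osm levels was not tested.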

How the data were processed

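Reads per gene were analysed in 16 libraries of stranded poly(A) RNA with an RNA input between 2.4 and 147 ng, per the labels' protocols. The values are raw counts as deposited by the authors, who used FastQC 0.11.5 and STAR 2.5.3a with GRCm38, per the submitters' processing notes; the counting program, its strand setting and annotation were not given in the sources used here. Of 50600 genes, 50376 matched GENCODE M21 by identifier and 224 had no name; every column belonged to a sample.

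Groups came from the labels and replicates were numbered in accession order. Counts were scaled by TMM, genes kept by filterByExpr, and all libraries fitted together, each group with its own mean (edgeR 4.0.16, glmQLFit with robust estimation and glmQLFTest, R 4.3.3). Tests were two-sided. The standard error is the log2 fold change over the root of F. Levels per kilobase used the union of GENCODE M21 exons. The script was tested on simulated data. Alternatives used DESeq2 1.42.0, limma 3.58.1 (voom), other scalings, no low-count filter, the 8 libraries compared, each library left out, and brain CD11c replicates 1 and 2 (titles with EYFP) or 3 and 4 (other titles) alone.

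The 9 genes, the gene lists and the alternatives were chosen with earlier results of these data known. All 9 genes are named. Of each list, up to 3 called genes with the largest changes in the commoner direction and 1 in the other were eligible. Receptors could be named in any case. Tgfa, Ddit4, Mmp14, Pgf, Fn1, Ccr2, Plac8, Il1rl1 and 6330403L08Rik were chosen after their values were seen. Lists are described by counts and medians only. Of the lists prepared, 2 older symbols (Cyr61 and Ctgf) were read as Ccn1 and Ccn2 through RefSeq synonyms. Promoter windows are from RefSeq.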

Additional observations from a re-analysis of the deposited data

Results flagged for a closer look

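Of 36 sets of 4 libraries (9 genes in 4 groups), 3 held a library far from the other 3, as judged by its gap to the nearest library over the whole range (Dixon's criterion at 95%); chance would give about 1.8. Igf1 in brain CD11c replicate 2 was 80.8 CPM, against 20.8 to 30.7 in the others. Vegfa in control microglia replicate 3 was 28.1 CPM, against 8.30 to 11.4. Areg in control microglia replicate 4 was 0.722 CPM, against 0.473 to 0.487, a difference that rests on 25 against 19 to 23 reads.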

How the results depend on the processing

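The counts of genes called higher, genes called lower and growth factors called stayed within 1.5 times their main values under every alternative run, which covered the 3 main comparisons and not the 3 further contrasts. In these 3 comparisons no called growth factor changed direction, and 1 call was lost, that of Igf1 between brain and spleen CD11c cells with brain replicates 1 and 2 alone (−0.96). Igf1 between brain CD11c cells and ischemic microglia gained a call in 5 settings and Hbegf between the microglia groups in 4, as given above; the cause was not tested. Signs that reversed were those of uncalled values: Vegfb between the microglia groups with library totals (−0.0661) and in the range from −0.013 to 0.1416 without single replicates (lowest without control replicate 2), and Hbegf between brain and spleen in the range from −0.038 to 0.6702 without single replicates (lowest without brain replicate 4) and with brain replicates 1 and 2 alone (−0.57). Called values moved by over 1.5 times only for Hgf, Hbegf and Igf1, each through brain CD11c replicates. No paired analysis was possible because brain and spleen CD11c cells share 1 number in the labels, control and ischemic microglia share none, and numbers shared between microglia and CD11c groups belong to different mouse lines. Depth limits Areg in spleen, where 1 or 2 reads were counted a library.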
